A study of Mus musculus with 9 samples.

Results

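The genes described here build the costamere, the dystrophin complex and the intermediate filament network of muscle. They are the 10 genes Des, Vim, Nes, Synm, Dmd, Utrn, Sgca, Sgcb, Dag1 and Plec, chosen by symbol from the 55487 genes of the count table, and each matched 1 gene in it. Their transcripts were counted by sequencing of polyadenylated RNA from the gastrocnemius, a calf muscle, of male wild-type C57BL/6 mice, which the study's text gives as C57BL/6J. Control (n = 4 libraries) stood for mice walking freely in conventional cages, Unloading (n = 2) for mice whose hindlimbs had borne no weight for 10 days under tail suspension, and Reloading (n = 3) for mice put back to cage activity for 1 day after such unloading. All 3 groups shared strain, genotype and tissue, and no age was given in the labels. The comparisons ask what disuse and the return of load do to the transcripts of the muscle. The labels number the replicates and do not say which came from separate mice, so the p-values measure the spread between these libraries.

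The costamere is a band of protein under the fibre membrane that ties the outermost myofibrils to the membrane and the extracellular matrix, and it carries force sideways out of the fibre. In it, dystrophin binds actin on the inside and dystroglycan on the membrane, dystroglycan binds laminin outside, and the sarcoglycans hold dystroglycan in place. Loss of dystrophin causes Duchenne muscular dystrophy, and utrophin, its close relative, is found in adult fibres mainly at the neuromuscular junction and spreads over the membrane in regenerating and dystrophin-deficient fibres. Desmin filaments link the Z-discs of neighbouring myofibrils to each other, to nuclei and to the costamere, with synemin as a partner subunit and plectin as the crosslinker. Vimentin and nestin are the intermediate filament proteins of mesenchymal and precursor cells, and myoblasts and regenerating fibres also make them.

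The promoters of the 4 members that changed most between Unloading and Reloading are shown, each as the 250 bases before a start site in RefSeq (GRCm38.p6), 5′ to 3′ on the strand of the gene. Capitals mark the CArG box, the binding motif of serum response factor, and CANNTG, the E-box bound by myogenic factors. Both were searched on both strands, together with GAANNTTC, a heat shock element, and overlapping matches were merged in capitals. The window of Dmd (chrX:82948620-82948869, plus strand) lies just before the first base of the gene in the count table. A second window of Dmd, before a start site inside the gene (chrX:85048045-85048294), held none of the motifs and is not shown. That of Utrn (chr10:12861736-12861985, minus strand) lies inside the gene of the count table, since the RefSeq start site is farther downstream. The gene reaches to base 12869365, and whether this Utrn window acts as a promoter was not tested. That of Nes (chr3:87970843-87971092, plus strand) ends just inside the gene of the count table, and that of Vim (chr2:13574061-13574310, plus strand) lies within it.
Dmd: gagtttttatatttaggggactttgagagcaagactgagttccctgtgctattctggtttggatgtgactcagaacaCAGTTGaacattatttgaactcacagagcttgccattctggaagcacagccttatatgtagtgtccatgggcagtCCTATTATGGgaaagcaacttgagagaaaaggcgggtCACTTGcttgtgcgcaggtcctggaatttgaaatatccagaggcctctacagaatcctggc
Utrn: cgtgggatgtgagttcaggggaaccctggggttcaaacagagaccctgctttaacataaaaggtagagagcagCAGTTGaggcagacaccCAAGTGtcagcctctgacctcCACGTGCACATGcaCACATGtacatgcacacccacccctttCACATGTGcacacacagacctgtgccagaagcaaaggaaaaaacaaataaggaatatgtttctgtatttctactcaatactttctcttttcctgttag
Nes: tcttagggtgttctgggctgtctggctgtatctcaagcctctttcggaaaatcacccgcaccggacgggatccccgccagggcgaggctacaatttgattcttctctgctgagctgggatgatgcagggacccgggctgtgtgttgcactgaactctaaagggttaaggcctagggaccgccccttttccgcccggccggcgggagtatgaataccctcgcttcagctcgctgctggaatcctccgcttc
Vim: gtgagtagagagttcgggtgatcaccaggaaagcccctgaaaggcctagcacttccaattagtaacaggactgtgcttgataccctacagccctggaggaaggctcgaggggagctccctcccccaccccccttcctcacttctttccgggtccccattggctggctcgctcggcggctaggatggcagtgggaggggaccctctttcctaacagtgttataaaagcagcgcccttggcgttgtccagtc
The Dmd window shown held 1 CArG box, which started 98 bases before the start site. A CArG box was present in 1.47% of all 32851 such windows. The Utrn window held 7 matches to CANNTG, some of them overlapping, and the Nes and Vim windows held none of the 3 motifs. The 9 members with a window in the RefSeq table, all but Plec, had 11 windows in all. CANNTG was found in 7 of these 11 windows and in 66.2% of all windows, a CArG box in 1 of the 11, and GAANNTTC in 0 of the 11 and in 6.69% of all windows.

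The libraries held between 9252443 and 19612101 read pairs in genes, and every member had at least 231 counts in every library, so all 10 passed the filter on low counts. Expression is given as counts per 1000000 (CPM) after TMM scaling, and changes as log2 fold changes ± SE from edgeR's quasi-likelihood test with Benjamini-Hochberg adjustment over 14851 tested genes. Depending on the library, 1 count was worth between 0.0546 and 0.113 CPM. TMM factors were 0.928 to 0.960 in Control and Unloading and 1.11 to 1.13 in Reloading. Scaling to library totals alone put the median of all tested genes of Reloading at 0.27 relative to Unloading and 0.25 relative to Control on the log2 scale, where TMM gave 0.03 and 0.01. Control 2 and Reloading 1 held skin transcripts, with summed expression of 6 keratins of 234 and 117 CPM against at most 4.20 CPM in the other 7 libraries. Values with both left out are given for Vim, Nes, Plec, Utrn and Sgca, in which Reloading 1 was the highest Reloading library. For Des, Synm and Dmd Reloading 1 was the lowest Reloading library. With both left out, Synm and Dmd stayed lower in Reloading than in Unloading and Control and kept their calls. Y-linked Ddx3y had at least 1013 counts and Xist at most 5 in every library, as the male labels call for, although the methods of the study describe female mice for the unloading procedure. The 8 markers of skeletal muscle fibres were all detected, and their sum was 124991 to 188400 CPM.

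Return of load moved most of the members. Between Unloading and Reloading 5 of the 10 rose, namely Nes, Vim, Utrn, Plec and Dag1, and 4 fell, namely Dmd, Synm, Sgca and Sgcb, while Des did not pass the test. With library totals only, the split was 5 higher and 2 lower, where 42.7% of all tested genes were called. After TMM scaling the test called 37.5% of all tested genes, 18.5% higher and 19% lower in Reloading. Log2 fold changes of the members ran from -0.91 (Dmd) to 2.09 (Nes) with a median of 0.04, and the median of all tested genes was 0.03. Unloading against Control called 2 members, Des higher and Nes lower, where it called 9.9% of all tested genes, 4.4% higher and 5.5% lower. Reloading against Control called all 10, with 6 higher and 4 lower and a median of 0.21, where it called 43.5% of all tested genes, 22.1% higher and 21.3% lower. Each pair of comparisons shares a group of libraries, so their values for a member are not independent of each other.

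**Figure D1:**
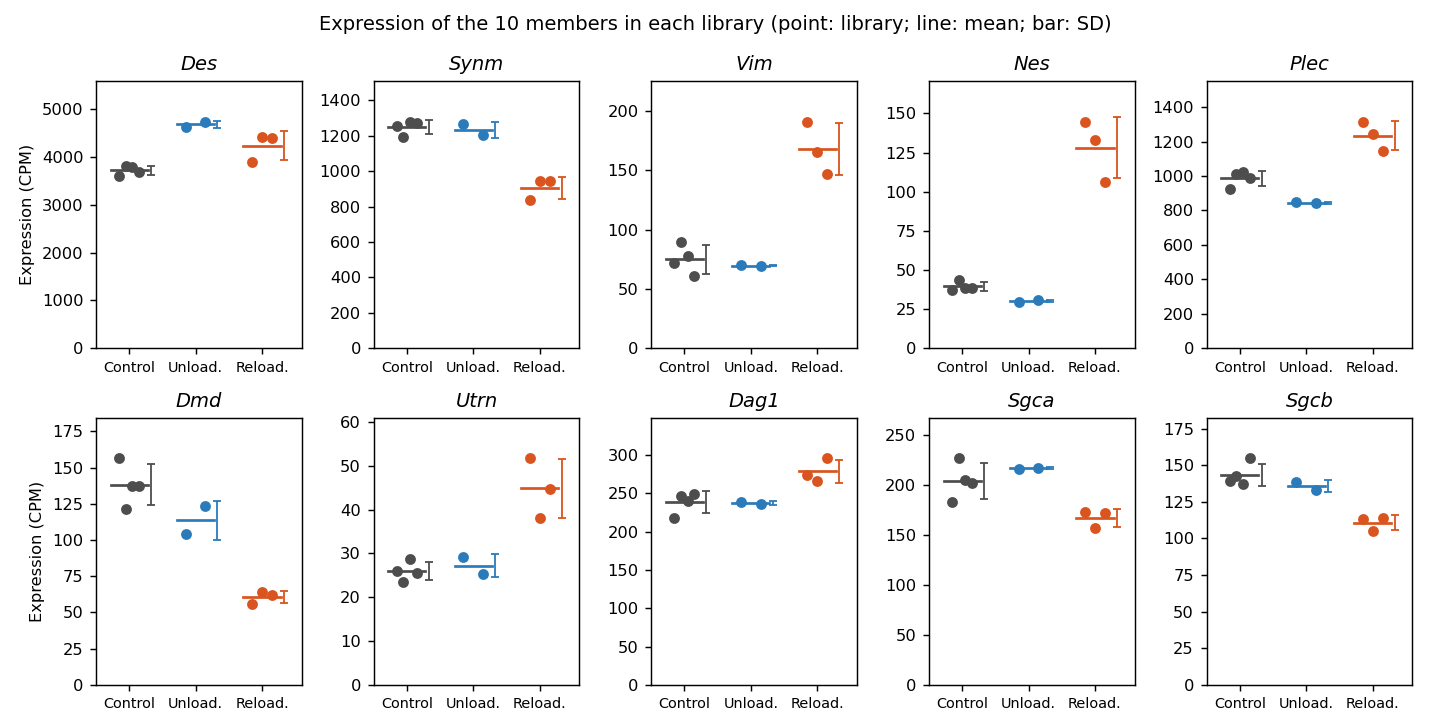
Expression (CPM, y axis from 0) of each member in the 4 Control, 2 Unloading and 3 Reloading libraries. Points are libraries, lines are group means and bars are the SD. Nes, Vim, Utrn, Plec and Dag1 lay above the other groups in all 3 Reloading libraries, and Dmd, Synm, Sgca and Sgcb lay below them. How many of all tested genes separate in this way was not counted, here or where the text says that groups did not overlap.

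**Figure D2:**
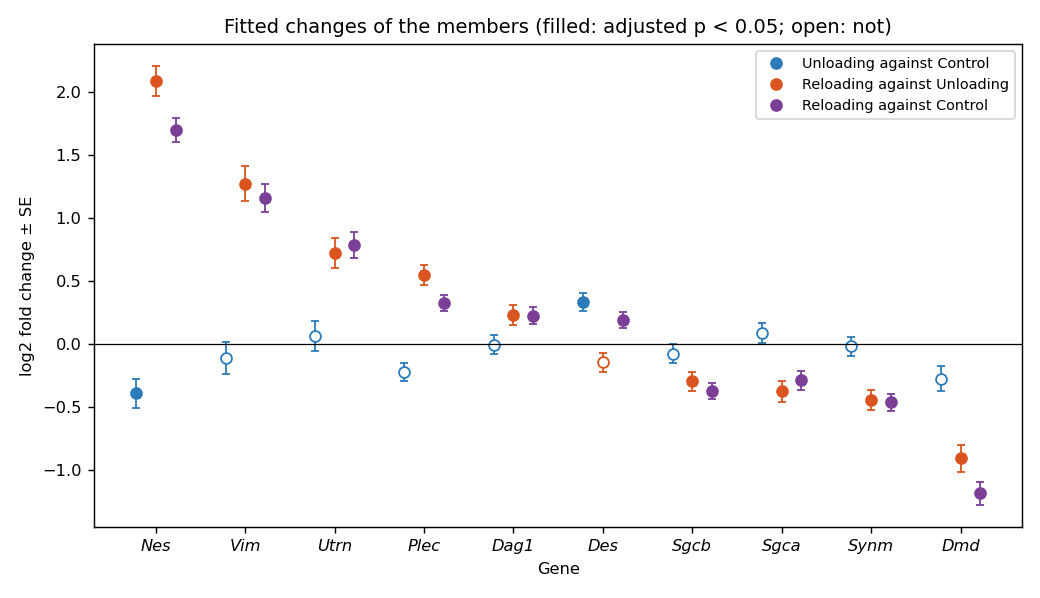
Log2 fold change ± SE (y axis) of each member (x axis) in the 3 comparisons, ordered by Reloading against Unloading. Filled points passed an adjusted p of 0.05 and open points did not. The range for Reloading against Unloading is from 2.09 for Nes to -0.91 for Dmd, whereas for Unloading against Control only Des (0.33) and Nes (-0.39) are filled.

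Desmin (Des, ENSMUSG00000026208, chr1:75360329-75368579 in GRCm38) is the main intermediate filament protein of the fibre and was the most abundant member. Its expression was 3603, 3806, 3796 and 3678 CPM in Control 1 to 4, 4636 and 4738 CPM in Unloading 1 and 2, and 3899, 4416 and 4408 CPM in Reloading 1 to 3. Both Unloading libraries lay above all Control libraries, and the Reloading libraries lay between the groups. Des rose 1.26-fold in Unloading against Control (log2 fold change 0.33 ± 0.07, edgeR adjusted p = 0.00960). The call was lost without Unloading 1 (adjusted p = 0.0948) or Unloading 2 (adjusted p = 0.0502). Reloading against Unloading gave -0.14 ± 0.08 (edgeR adjusted p = 0.151), and 0.10 with library totals only, so the direction depended on the scaling. In Reloading against Control Des rose by 0.19 ± 0.06 on the log2 scale (edgeR adjusted p = 0.0253). The latter call was lost without Control 1 (adjusted p = 0.0684), Control 3 (0.0547), Control 4 (0.0561), Reloading 2 (0.131) or Reloading 3 (0.0906). Exons of Des share 220 bases, 5.86% of their length, with the antisense gene Gm15179, and counting without strand cannot tell them apart.

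Synemin (Synm, ENSMUSG00000030554, chr7:67730160-67759742) copolymerises with desmin and vimentin and binds to the dystrophin complex. Control libraries held 1254, 1193, 1280 and 1273 CPM, Unloading 1264 and 1203 CPM, and Reloading 835, 942 and 942 CPM. Control and Unloading overlapped, and all Reloading libraries were lower than both. Synm fell by 0.44 ± 0.08 on the log2 scale in Reloading against Unloading (edgeR adjusted p = 0.000362) and by 0.46 ± 0.06 against Control (adjusted p = 4.24e-05). Its change in Unloading was -0.02 ± 0.07 (adjusted p = 0.902). The synemin transcript was thus 1.36-fold more abundant in Unloading than in Reloading. For desmin, its partner, the same comparison did not pass the test. Synm shares 426 exon bases with Gm45102 and 84 with Ttc23, both on the opposite strand.

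Vimentin (Vim, ENSMUSG00000026728, chr2:13573927-13582826) was measured at 71.5, 89.8, 78.0 and 60.9 CPM in Control, 69.8 and 69.2 CPM in Unloading and 191, 166 and 147 CPM in Reloading. The Unloading values lay within the Control range, and every Reloading library exceeded every other library. Vim rose 2.42-fold in Reloading against Unloading (log2 fold change 1.27 ± 0.14, edgeR adjusted p = 6.91e-06) and 2.24-fold against Control (1.16 ± 0.11, adjusted p = 1.05e-06). In Unloading it changed by -0.11 ± 0.13 (adjusted p = 0.626). Reloading 1 and Control 2, the libraries with skin transcripts, were the highest of their groups. With both left out the change was 1.17 against Unloading (adjusted p = 3.40e-06) and 1.16 against Control (adjusted p = 1.03e-06).

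Nestin (Nes, ENSMUSG00000004891, chr3:87971078-87980451) needs vimentin or desmin to form filaments and marks muscle precursors and, in adult fibres, the neuromuscular and myotendinous junctions. Its expression was 37.1, 43.6, 38.5 and 38.7 CPM in Control, 29.7 and 30.5 CPM in Unloading, and 145, 133 and 106 CPM in Reloading. The 3 groups did not overlap, with Unloading the lowest. Nes rose 4.24-fold in Reloading against Unloading, the largest change of any member (log2 fold change 2.09 ± 0.12, edgeR adjusted p = 1.63e-08), and 3.24-fold against Control (1.70 ± 0.09, adjusted p = 4.68e-09). In Unloading it fell by 0.39 ± 0.11 on the log2 scale (adjusted p = 0.0425). That fall did not pass without Control 2 (adjusted p = 0.0865), Control 3 (0.0657), Control 4 (0.0584), Unloading 1 (0.284), Unloading 2 (0.113) or Reloading 2 (0.0562), nor without Control 2 and Reloading 1 together (0.0616). Without these 2 libraries the rise was 1.99 against Unloading (adjusted p = 2.31e-08).

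The ratio of vimentin to desmin transcripts was taken within each library, so that it does not depend on the scaling. On the log2 scale the means ± SD were -5.64 ± 0.21 (Control, n = 4), -6.07 ± 0.03 (Unloading, n = 2) and -4.66 ± 0.28 (Reloading, n = 3). Counts of Des were 42.4 to 60.3 times those of Vim in Control, 66.4 to 68.5 times in Unloading and 20.4 to 29.95 times in Reloading. The groups did not overlap. The difference between Reloading and Control, 0.98, had an exact two-sided permutation p of 0.0571, the smallest that 4 against 3 libraries can give, and 0.257 after adjustment over the 9 ratio tests. The smallest possible p was 0.2 for Reloading against Unloading (difference 1.41) and 0.133 for Unloading against Control (difference -0.43), and both were at it.

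Plectin (Plec, ENSMUSG00000022565, chr15:76170974-76232574) crosslinks desmin to Z-discs, costameres, mitochondria and nuclei, and its loss causes a muscular dystrophy with skin blistering. It was measured at 926, 1012, 1021 and 986 CPM in Control, 850 and 841 CPM in Unloading and 1315, 1246 and 1145 CPM in Reloading. The groups did not overlap, with Unloading lowest and Reloading highest. Plec rose 1.46-fold in Reloading against Unloading (log2 fold change 0.55 ± 0.08, edgeR adjusted p = 8.99e-05) and 1.25-fold against Control (0.32 ± 0.06, adjusted p = 0.000879). Its change in Unloading, -0.22 ± 0.07, did not pass (adjusted p = 0.0722). Plectin is also abundant in skin, and Reloading 1 was again the highest library. With Control 2 and Reloading 1 left out the change was 0.50 against Unloading (adjusted p = 0.000566) and 0.29 against Control (adjusted p = 0.00952). Plec shares 205 exon bases with Parp10 on the same strand.

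Dystrophin (Dmd, ENSMUSG00000045103, chrX:82948870-85206141) spans 2257 kb, and its transcript showed the largest fall of the members. Control libraries held 156, 122, 137 and 137 CPM, Unloading 104 and 123 CPM, and Reloading 55.7, 64.3 and 62.0 CPM. Every Reloading library lay below every other library, while Unloading 2 lay within the range of Control. Dmd was 1.88-fold higher in Unloading than in Reloading (log2 fold change of Reloading against Unloading -0.91 ± 0.10, edgeR adjusted p = 1.25e-05) and 2.27-fold higher in Control than in Reloading (-1.18 ± 0.09, adjusted p = 1.48e-07). Unloading against Control gave -0.28 ± 0.10 (adjusted p = 0.0919), and with 1 library left out it ran from -0.16 without Unloading 1 (adjusted p = 0.598) to -0.40 without Unloading 2 (adjusted p = 0.0616). It passed without Control 2 (-0.33, adjusted p = 0.0470). The gene makes several isoforms from separate promoters, and counts per gene cannot tell which of them moved.

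Utrophin (Utrn, ENSMUSG00000019820, chr10:12382188-12869365) had the lowest CPM of the members in every library and moved the other way from Dmd. Its expression was 26.1, 23.5, 28.7 and 25.6 CPM in Control, 29.1 and 25.3 CPM in Unloading and 51.7, 38.1 and 44.7 CPM in Reloading. Control and Unloading overlapped, and all Reloading libraries were higher. Utrn rose 1.65-fold in Reloading against Unloading (log2 fold change 0.72 ± 0.12, edgeR adjusted p = 0.000324) and 1.72-fold against Control (0.78 ± 0.10, adjusted p = 2.13e-05), and in Unloading its change was 0.06 ± 0.12 (adjusted p = 0.789). Reloading 1 was the highest library, and with it and Control 2 left out the changes were 0.61 (adjusted p = 0.00100) and 0.63 (adjusted p = 0.000340).

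Counts of Dmd were 4.78 to 5.99 times those of Utrn in Control, 3.58 and 4.87 times in Unloading, and 1.08, 1.69 and 1.39 times in Reloading 1 to 3. The log2 ratio of Utrn to Dmd had means ± SD of -2.41 ± 0.14 (Control, n = 4), -2.06 ± 0.31 (Unloading, n = 2) and -0.44 ± 0.32 (Reloading, n = 3). In Reloading the ratio exceeded that of Unloading 3.07-fold and that of Control 3.90-fold, with no overlap in either comparison. Exact two-sided permutation tests gave p = 0.2 and p = 0.0571, the smallest these group sizes allow, and 0.3 and 0.257 after adjustment over 9 tests. Between Unloading and Control the ratio differed 1.27-fold, with overlap (exact permutation p = 0.267), and on the log2 scale the difference of 0.35 became 0.12 without Unloading 1 and 0.57 without Unloading 2.

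**Figure D3:**
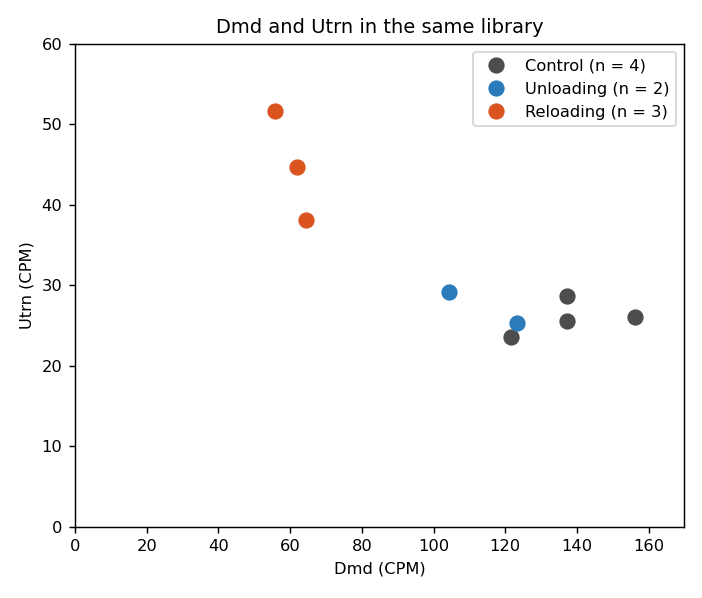
Expression of Utrn (CPM, y axis) against that of Dmd (CPM, x axis) in each library, both axes from 0. The 3 Reloading libraries sit at 55.7 to 64.3 CPM of Dmd and 38.1 to 51.7 CPM of Utrn, apart from the 6 Control and Unloading libraries, which hold 104 to 156 CPM of Dmd and 23.5 to 29.1 CPM of Utrn.

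Dystroglycan (Dag1, ENSMUSG00000039952, chr9:108204634-108263958) encodes both the laminin-binding and the membrane-spanning subunit of the complex. It was measured at 217, 246, 241 and 249 CPM in Control, 239 and 236 CPM in Unloading and 274, 266 and 296 CPM in Reloading. All Reloading libraries were above the other libraries, and Unloading lay within Control. Dag1 rose 1.17-fold in Reloading against both Unloading (log2 fold change 0.23 ± 0.08, edgeR adjusted p = 0.0321) and Control (0.23 ± 0.07, adjusted p = 0.0122), and its change in Unloading was -0.01 ± 0.08 (adjusted p = 0.970). The call against Unloading was lost in 10 of 18 alternatives, with adjusted p up to 0.153. Among them were the fits without Control 3 (0.0544), Unloading 1 (0.106), Unloading 2 (0.148) or Reloading 3 (0.0987). Without Reloading 3 the call against Control was lost too (adjusted p = 0.0613).

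The sarcoglycans Sgca (ENSMUSG00000001508, chr11:94962791-94976327) and Sgcb (ENSMUSG00000029156, chr5:73632749-73647790) encode subunits of 1 complex, and loss of either causes a limb-girdle muscular dystrophy. Sgca held 183, 226, 204 and 202 CPM in Control, 216 and 217 CPM in Unloading and 173, 156 and 172 CPM in Reloading. Sgcb held 139, 143, 137 and 155 CPM in Control, 139 and 133 CPM in Unloading and 113, 105 and 114 CPM in Reloading. For both genes the Reloading libraries lay below all others, and Unloading overlapped Control.

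Sgca fell by 0.38 ± 0.09 and Sgcb by 0.30 ± 0.08 on the log2 scale in Reloading against Unloading (edgeR adjusted p = 0.00334 and 0.00755). Against Control they fell by 0.29 ± 0.07 and 0.37 ± 0.07 (adjusted p = 0.00527 and 0.000319). Their changes in Unloading were 0.09 ± 0.08 and -0.08 ± 0.07 (adjusted p = 0.548 and 0.551). With library totals only, neither passed in Reloading against Unloading (-0.13, adjusted p = 0.230, and -0.05, adjusted p = 0.617) or against Control (-0.05, adjusted p = 0.593, and -0.13, adjusted p = 0.0858). Control 2 and Reloading 1 were the highest libraries of their groups for Sgca, and with both left out it fell by 0.40 against Unloading (adjusted p = 0.00319) and by 0.26 against Control (adjusted p = 0.0212) on the log2 scale. The fall of Sgcb against Unloading was also lost without Unloading 1 (adjusted p = 0.0532). The log2 ratio of Sgca to Sgcb had means ± SD of 0.50 ± 0.14 (Control, n = 4), 0.67 ± 0.05 (Unloading, n = 2) and 0.59 ± 0.02 (Reloading, n = 3). Its difference between Reloading and Control was 0.09 (exact permutation p = 0.4, smallest possible 0.0571).

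Levels of different genes were compared as CPM per kb of summed exon length. In Control the order was Des (991), Synm (158), Sgca (118), Plec (54.5), Dag1 (37.5), Sgcb (35.4), Vim (15.8), Nes (6.15), Dmd (5.80) and Utrn (1.52). Dag1 and Sgcb, and likewise Nes and Dmd, overlapped between libraries and could not be ordered. In Unloading the levels of Dmd (4.78 ± 0.56, SD, n = 2) and Nes (4.70 ± 0.09, SD, n = 2) again overlapped. In Reloading Vim (35.4 ± 4.6, SD, n = 3) stood above Sgcb (27.3 ± 1.3), Nes reached 19.97 ± 3.06, and Utrn (2.62 ± 0.40) and Dmd (2.55 ± 0.19) overlapped at the low end. The length of Dmd, 23801 bases, joins the exons of all its isoforms, so its level per kb is lower than it would be over the exons of a single isoform.

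Other genes of the dystrophin complex moved in both directions. Of 12 tested, 3 were higher and 3 lower in Reloading against Unloading, with a median log2 fold change of 0.03 beside 0.03 for all tested genes. The shares over all tested genes were 18.5% higher and 19% lower. The genes named here were chosen after their values were seen. Among the lower was Sntb1 (-0.37, edgeR adjusted p = 0.0457), a syntrophin, which is an adaptor that binds dystrophin. Higher were the syntrophin Sntb2 (0.62, adjusted p = 0.00258), caveolin-3 (Cav3, 0.40, adjusted p = 0.00336) and sarcospan (Sspn, 0.24, adjusted p = 0.0193). In Unloading against Control, Sgcd (-0.61, adjusted p = 0.0129) and Sspn (-0.42, adjusted p = 0.00300) fell and Lama2, the laminin chain that dystroglycan binds, rose (0.29, adjusted p = 0.0436). Reloading against Control called 2 higher and 6 lower, with a median of -0.20 beside 0.01 for all tested genes, of which 22.1% were higher and 21.3% lower. With library totals only these splits were 5 higher and 2 lower against Unloading and 5 higher and 1 lower against Control, so the split of calls depended on the scaling. That scaling called 42.7% and 50.6% of all tested genes. The list's medians were then 0.28 and 0.04, beside 0.27 and 0.25 for all tested genes. Against Control the list's median thus lay below that of all tested genes under both scalings.

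Enzymes that build the laminin-binding sugar chain of dystroglycan were tested for 13 of 14 genes, B4gat1 being too low. In Reloading against Unloading 3 were higher and 2 lower, with a median of 0.02, beside 18.5% higher and 19% lower of all tested genes. Gmppb, which makes the activated mannose for the chain, rose from 1.87 and 2.40 CPM in Unloading to 6.37, 4.27 and 4.83 CPM in Reloading (1.24, edgeR adjusted p = 0.000686). Pomt1, which begins the chain, rose by 0.56 (adjusted p = 0.00110). Pomgnt1 and Rxylt1 were the lower genes (-0.32 and -0.43, adjusted p = 0.0158 and 0.00353), and these 3 were named after their values were seen. Neither of the lower genes passed with library totals only (adjusted p = 0.542 and 0.158). Unloading against Control called 0 of the 13 by edgeR and 0 by DESeq2, with 1 higher and 3 lower at an unadjusted p under 0.05. By edgeR it called 9.9% of all tested genes. Reloading against Control called 4 higher and 5 lower with a median of -0.25, beside 22.1% higher and 21.3% lower of all tested genes. With library totals only the split was 4 and 2, where 50.6% of all tested genes were called.

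Among other intermediate filament genes, 5 of 9 were tested, and Krt8, Krt18, Krt19 and Gfap were not, each at no more than 0.80 CPM in any library. The lamin gene Lmna rose from 65.2 and 66.6 CPM in Unloading to 147, 134 and 126 CPM in Reloading (1.04, edgeR adjusted p = 8.82e-07). Lmnb2 rose as well (0.92, adjusted p = 0.000309), and is named after its value was seen. Lmnb1, Prph and the desmin-binding Sync had changes of 0.16, 0.78 and 0.10 and did not pass. The list's median was 0.78, the value of Prph, whose mean was 0.37 CPM in Unloading and 0.65 CPM in Reloading. With library totals only it was 1.02, beside 0.27 for all tested genes. That scaling called 4 of the list higher and 0 lower, and 42.7% of all tested genes in either direction.

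The other plakins and linkers were tested for 6 of 7 genes, without Eppk1. The chaperone Cryab, which binds desmin filaments, rose from 319 and 318 CPM in Unloading to 4410, 3766 and 3055 CPM in Reloading (3.56, edgeR adjusted p = 3.61e-10), and it was at 354 to 408 CPM in Control. Macf1, a plakin that links actin to microtubules, rose by 0.57 (adjusted p = 6.47e-05). Ppl fell by 0.62 (adjusted p = 0.00413) after a rise of 0.53 in Unloading against Control (adjusted p = 0.0288). With library totals only, that fall did not pass (-0.37, adjusted p = 0.0553), and both genes were named after their values were seen. Dst changed by -0.12 (adjusted p = 0.309). The list's median of 1.37 rests in part on Dsp and Evpl, epidermal plakins that did not pass and were highest in Control 2 and Reloading 1, where Dsp stood at 9.45 and 5.3995 CPM against at most 0.34 CPM elsewhere.

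Other costamere genes were mostly higher in Reloading. The 18 tested were listed with earlier results of these data known. Of them, 11 were higher and 0 lower than in Unloading, with a median of 0.52. Of all tested genes 18.5% were higher and 19% lower there. Against Control 13 of the 18 were higher and 1 lower, with a median of 0.83, beside 22.1% and 21.3% of all tested genes. At an unadjusted p under 0.05 edgeR put 2 of the 18 lower than in Unloading, and DESeq2 called 3 of them lower. Xirp1, which binds actin at myotendinous junctions, rose from 154 and 97.9 CPM to 2638, 2307 and 1860 CPM (4.17, edgeR adjusted p = 4.96e-09). Csrp3, the muscle LIM protein of the Z-disc, rose from 73.3 and 35.02 CPM to 838, 903 and 915 CPM (4.04, adjusted p = 2.68e-07). Filamin C (Flnc), the actin crosslinker of Z-disc and costamere, rose from 719 and 557 CPM to 9821, 7783 and 6869 CPM (3.68, adjusted p = 3.32e-09). In Unloading against Control 3 were higher, Ahnak (0.56, adjusted p = 0.0129), Itga7 (0.41, adjusted p = 0.00470) and Sptb (0.34, adjusted p = 0.00873), named after their values were seen.

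**Figure D4:**
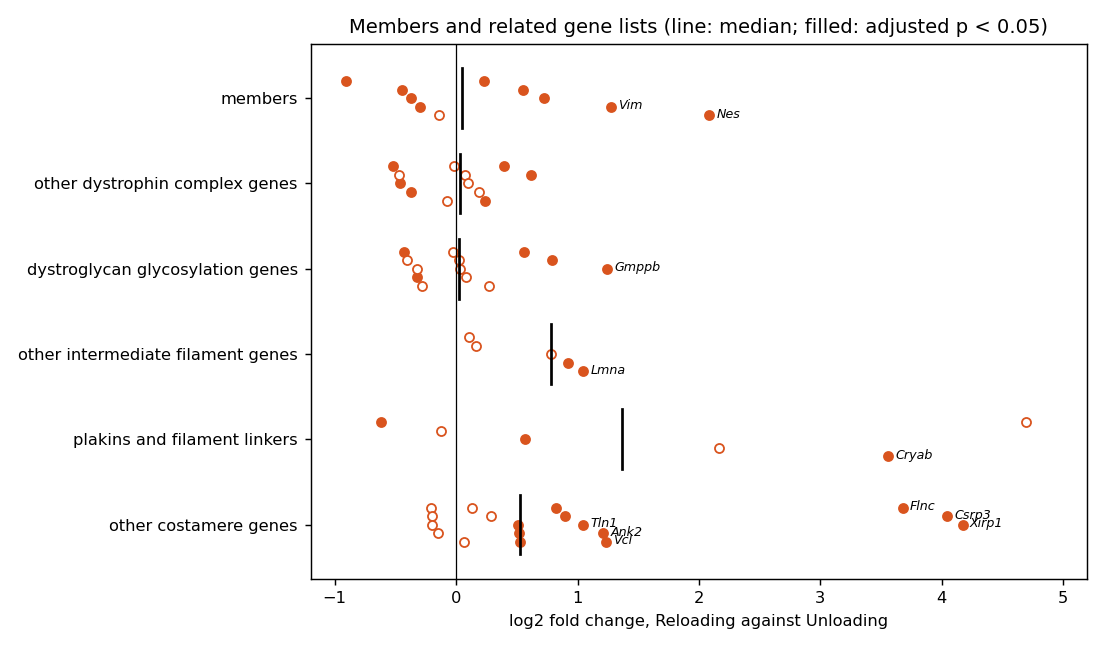
Log2 fold change in Reloading against Unloading (x axis) of the members and of the tested genes of 5 related lists (y axis). Each point is a gene, filled points passed an adjusted p of 0.05, lines are list medians, and genes that passed with at least 1 log2 unit are named. The medians are 0.04 for the members, 0.03 for other dystrophin complex genes, 0.02 for glycosylation genes, 0.78 for other intermediate filament genes, 1.37 for plakins and linkers and 0.52 for other costamere genes. The 0.78 is the value of Prph, which did not pass.

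Whole muscle holds many cell types, and fewer cells of a type cannot be told apart from less RNA per cell in bulk samples. Markers of several cell types differed between the groups. Calls in the marker lists are for Reloading against Unloading, where 18.5% of all tested genes were higher and 19% lower. Summed expression of the 8 fibre markers was 172881 to 188400 CPM in Control, 179703 to 186544 CPM in Unloading and 124991 to 137707 CPM in Reloading, and 7 of the 8 were lower in Reloading against Unloading. Of the members that fibres express, Dmd, Synm, Sgca and Sgcb were lower in the same libraries, Plec and Dag1 were higher, and Des did not pass the test against Unloading and was higher than in Control. Endothelial markers (5 of 6 higher) summed to 122 to 148 CPM in Control, 126 to 127 CPM in Unloading and 221 to 274 CPM in Reloading. Vim, which endothelial cells, macrophages, fibroblasts and Schwann cells also express, was higher in the same libraries. Macrophage markers (6 of 6 higher) summed to 63.1 to 77.2, 66.3 to 67.1 and 140 to 157 CPM in the same order, and Schwann cell markers (4 of 6 higher) to 36.4 to 56.4, 39.7 to 51.7 and 89.1 to 119 CPM. Of the macrophage markers Cd68 rose from a mean of 3.05 CPM in Unloading to 45.9 CPM in Reloading. The rest of that list rose by 0.57 to 1.12 on the log2 scale. Fibroblast markers (2 higher and 2 lower of 6) summed to 458 to 664, 538 to 549 and 604 to 767 CPM.

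Smooth muscle and pericyte markers (5 higher and 1 lower of 6) summed to 325 to 360, 376 to 416 and 401 to 426 CPM. Most of the sum came from Rgs5 (254 to 340 CPM over all libraries), the lower gene (log2 fold change -0.29 in Reloading against Unloading). Myh11, Acta2, Tagln, Pdgfrb and Cspg4 rose by 1.02, 1.46, 1.48, 0.42 and 1.37 in the same comparison. Satellite cell and myoblast markers (3 of 7 higher) summed to 67.9 to 78.9, 66.3 to 68.1 and 80.1 to 93.9 CPM. Higher in Reloading against Unloading were Myod1, Myog and Myh3 (log2 fold changes 1.30, 1.40 and 0.87). Pax7, Myf5 and Cdh15 changed by -0.15, -0.33 and -0.27 and Myh8 by 0.26, and none of these passed. Neuromuscular junction markers summed to 93.9 to 105, 106 to 111 and 103 to 114 CPM. Of these 6, 0 were called in Reloading against Unloading by edgeR (1 at an unadjusted p under 0.05) and 0 by DESeq2. Nes and Utrn were also higher in the libraries where the endothelial, macrophage and Schwann cell sums were, and the cells that made them were not told apart. No marker in any list was at 0 in all libraries. The part of cell composition in the changes of the members was not tested.

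**Figure D5:**
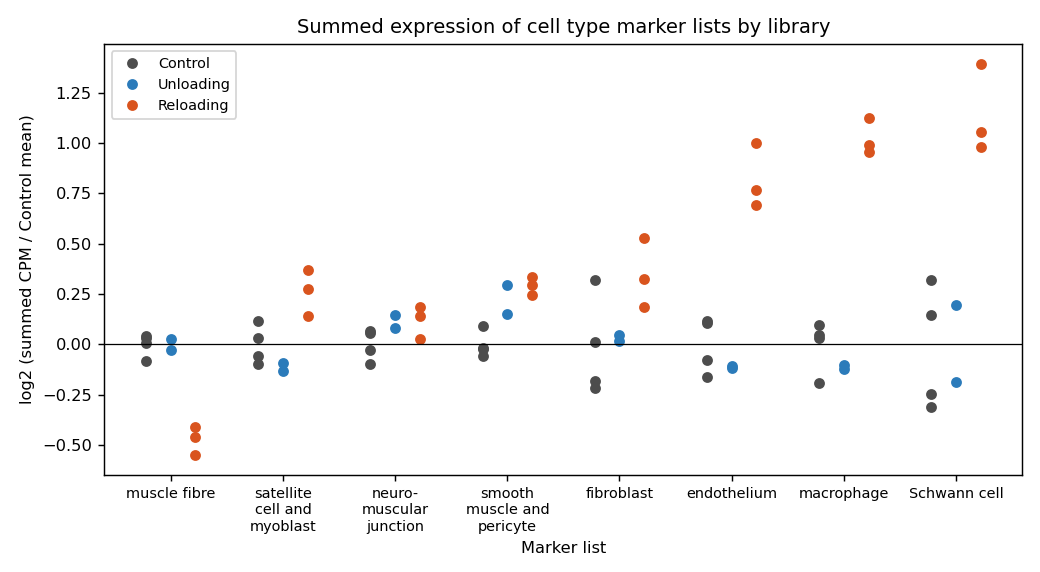
Summed expression of 8 marker lists (x axis) in each library, as the log2 ratio to the Control mean (y axis). Points are libraries. Reloading libraries lie below the other groups for fibre markers and above them for endothelial, macrophage, Schwann cell and satellite cell and myoblast sums. They overlap another group for the neuromuscular junction, smooth muscle and fibroblast lists. The smooth muscle sum is mostly Rgs5, the only gene of that list that fell against Unloading. In the macrophage list Cd68 rose more against Unloading (3.93) than any other gene. In the satellite cell and myoblast list Myod1, Myog and Myh3 rose against Unloading, and the other genes did not pass.

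The 3 genes most like each member in pattern were found by the root-mean-square difference of log2 CPM, centred on the Control mean, over the 9 libraries and among 9872 genes. They were Stab1, Igfbp7 and Adam15 for Vim (differences of 0.090 to 0.105), Tspan9, Myh9 and Hsph1 for Nes (0.136 to 0.148), and B4galt1, Ankrd17 and Zc3h18 for Des (0.042 to 0.071). For Synm they were Tpt1, Sorl1 and G3bp2 (0.043 to 0.048), and for Plec Dstn, Rpn2 and Arpc3 (0.062 to 0.067). Dmd lay nearest to Oip5os1, 2310015K22Rik and Gm37829 (0.102 to 0.114) and Utrn to Cav1, Sec31a and Wdr3 (0.071 to 0.089). Sgca was followed by Slc25a42, Stim1 and Mpi (0.054 to 0.060), Sgcb by Pla2g12a, Emc4 and Ccdc9b (0.046 to 0.051), and Dag1 by Scaf4, Rnf220 and M6pr (0.056 to 0.059). Members with small changes have near neighbours because many genes differ little between groups, so these distances describe the patterns and order no relation between genes.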

How the data were processed

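Polyadenylated RNA was sequenced from gastrocnemius muscle of 4 Control, 2 Unloading and 3 Reloading samples. The authors aligned the reads with STAR 2.7.3a, per the submitters' processing notes, to GRCm38 and counted them with featureCounts 2.0.3 against Ensembl release 102, unstranded. The deposited counts are raw, of read pairs, for 55487 genes, although the study's methods describe single reads. The authors' DESeq2 tables of log2 fold changes, p-values and mean signal were used for gene symbols only, and 0 columns of samples stayed unmapped.

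Genes were kept by filterByExpr (minimum count 10, minimum total 15), leaving 14851 of the 34376 with a total above 0. Counts were scaled by TMM and tested with edgeR 4.0.16 in R 4.3.3, by the quasi-likelihood F-test (two-sided) in 1 fit of all 9 libraries with group as the only term, with Benjamini-Hochberg adjustment per comparison and a threshold of 0.05. SEs were derived from the F statistic. CPM per kb used the summed exon lengths of the table. Ratios within a library used counts plus 0.5 and exact permutation tests. The fit was tested on simulated data. DESeq2 1.42.0, other scalings, no filter, replicate blocks and left-out libraries were tried as alternatives. Coordinates are those of the count table, and promoter windows those of RefSeq.

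The members and lists were chosen with earlier results of these data known. Named besides the members were list genes past the threshold with at least 1 log2 unit, at most 3 up and 3 down per list and comparison, list genes that were not tested, and the 3 pattern neighbours of each member. Other list genes in the text, most of them below 1 log2 unit and some not past the threshold, fall outside this rule and were chosen after their values were seen. Some genes of the lists are not reported here. Counts limit precision, and the SEs and SDs given include the spread between libraries as well as counting error.

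Same-numbered Control and Reloading libraries were checked for shared deviations from their group means. By the numbers in the sample titles the correlations were -0.191, -0.201 and -0.016, and none passed 0.1. By the numbers in the sample descriptions they were 0.361, 0.143 and 0.155, and all 3 pairs passed 0.1. The first of these pairs is Control 2 with Reloading 1, the libraries with skin transcripts. Pairs with Unloading by the description numbers did not pass 0.1. They gave 0.054 (Control 1 with Unloading 1), 0.075 (Control 2 with Unloading 2) and 0.017 (Unloading 2 with Reloading 1). Pairs that share no number were not correlated, so these values cannot decide whether libraries were paired.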

Additional observations from a re-analysis of the deposited data

How the results depend on the processing

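Between 7 and 9 members were called in Reloading against Unloading and between 8 and 10 in Reloading against Control under the 18 alternatives, and Vim, Nes, Synm, Dmd, Utrn and Plec kept direction and call in all of them for both comparisons. The share called of all tested genes ran from 16.1% (no filter) to 42.7% (library totals only) in Reloading against Unloading. In Reloading against Control it ran from 18.6% to 50.6% under the same settings. Leaving out 1 library each gave 7 to 9, 0 to 2 and 8 to 10 members called in Reloading against Unloading, Unloading against Control and Reloading against Control. The 2 calls in Unloading against Control fell to 1 without Control 3, Control 4 or Reloading 2. These fits called 6.44%, 9.29% and 8.63% of all tested genes, beside 9.9% in the main fit. Neither call held without Unloading 1 or Unloading 2, where fewer of all tested genes were called as well. With 1 library left out, the change of Des there ran from 0.32 to 0.35 and that of Nes from -0.42 to -0.34. With only 1 Unloading library left, it is assumed to vary like the other groups. DESeq2 called 3 members there, Plec being added (-0.21, adjusted p = 0.0417). With library totals only, Des in Reloading against Unloading turned to 0.10 (adjusted p = 0.268), and members called were 5 higher and 2 lower in that comparison and 6 higher and 2 lower in Reloading against Control. With Control 2 and Reloading 1 both left out, 8, 2 and 10 members were called in the 3 comparisons, Dmd replacing Nes in Unloading against Control (-0.33, adjusted p = 0.0422).

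Changes near 0 in Unloading against Control turned sign without passing the test, and the cause was not tested. Synm became 0.017 with no filter, and 0.016 and 0.026 with the replicate block of the title and description numbers. Dag1 became 0.030 with no filter, 0.047 and 0.034 with these replicate blocks, 0.0088 with Control 2 and Reloading 1 left out and 0.0055 with DESeq2. Leaving out 1 library each, Synm ran from -0.052 to 0.015, Dag1 from -0.048 to 0.016 and Utrn from -0.035 to 0.163, with the sign turned for Synm without Unloading 2, for Dag1 without Control 2, Control 4 or Unloading 2, and for Utrn without Unloading 1.

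The Utrn to Dmd difference ran from 1.39 to 1.84 (Reloading against Unloading), from 0.12 to 0.57 (Unloading against Control) and from 1.79 to 2.12 (Reloading against Control) on the log2 scale with 1 library left out.

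The replicate block of the description numbers kept all 10 calls in Reloading against Control (Dmd -1.18, adjusted p = 1.66e-07) and both in Unloading against Control, and ended that of Dag1 in Reloading against Unloading (0.17, adjusted p = 0.153). The block of the title numbers ended the same call (0.20, adjusted p = 0.0959) and that of Des in Reloading against Control (0.18, adjusted p = 0.0652).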

Other observations

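Dmd is among the longest genes of the mouse, and 23 tested genes span over 1000 kb from first to last base. Their median log2 fold change in Reloading against Unloading was -0.29, with 7 lower (30.4%) and 1 higher (4.35%) by edgeR's adjusted p, beside 19% lower and 18.5% higher of all tested genes. Tested genes in the 5 shorter span classes had medians between -0.01 and 0.09, with 14.6% to 22.3% lower and 15.1% to 19.7% higher. Among the lower were, besides Dmd (2257 kb, -0.91), Cntnap2 (2245 kb, -0.99, edgeR adjusted p = 0.000360), Macrod2 (1998 kb, -0.70, adjusted p = 0.00491), Rbfox1 (1526 kb, -0.48, adjusted p = 0.000269), Opcml (1135 kb, -0.72, adjusted p = 0.0249) and Zfhx3 (1019 kb, -0.29, adjusted p = 0.0368). Cdh13 (1041 kb, 0.44, adjusted p = 0.00171) was higher, and the sarcoglycan gene Sgcd, which spans 1093 kb, changed by 0.09 and did not pass. Utrn, which rose, spans 487 kb. The span classes were set after the values of Dmd were known, no test was made of them, and the part of gene length in the fall of Dmd was not tested.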
